A study of Mus musculus with 9 samples.

Results

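Translation initiation and elongation factors are the proteins that load messenger RNA and initiator tRNA onto the ribosome and then move the ribosome along the message. The genes were taken by name, as every gene whose symbol begins with Eif1 to Eif6 or with Eef1 or Eef2, with pseudogenes left out. This gave 60 genes of the 11802 listed. RNA bound to tagged ribosomes of endothelial cells in mouse white adipose tissue was sequenced in 9 libraries. In RiboTag mice, cells in which Cre has acted make a ribosomal protein, Rpl22, with an HA tag, and an anti-HA antibody pulls down their ribosomes with the bound RNA. The 4 libraries labelled WT came from Pdgfb-iCreERT2:Rpl22HA mice and the 5 libraries labelled KO from Pdgfb-iCreERT2:Mfn2iΔEC:Rpl22HA mice, which were made to lack Mfn2, a mitochondrial fusion protein, in endothelial cells. Both groups therefore carried the Pdgfb-driven Cre and the tagged Rpl22. Neither age nor the scheme of Cre induction is given in the sources used here. The labels call the replicates biological but name no animals. The p-values therefore speak only of the spread among the 9 libraries, which may be technical.

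Initiation begins when eIF2, carrying GTP and the initiator methionine tRNA, joins the small ribosomal subunit together with eIF1, eIF1A, eIF3 and eIF5. The eIF4 group binds the cap of the message and unwinds its leader, and eIF5B then joins the large subunit. eIF2B recharges eIF2 with GTP, and stress kinases that phosphorylate eIF2 block this step. In elongation eEF1A brings charged tRNAs to the ribosome and eEF2 moves the ribosome by 1 codon. Messages of many elongation factors and of some initiation factors begin with a run of pyrimidines at the cap, the terminal oligopyrimidine tract, through which mTORC1 signalling controls their translation.

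The start regions of 9 members are shown because a pyrimidine run at the cap is known from messages of many elongation and some initiation factors. Each is a stretch of 30 bases at or near an annotated start, from RefSeq on GRCm38.p6, 5′ to 3′ on the gene's strand, and capitals mark a C followed by at least 6 more C or T.
Eef1a1, chr9:78481710-78481739, minus strand: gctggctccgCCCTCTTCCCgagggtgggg
Eef2, chr10:81176634-81176663, plus strand: gacgtcagcggtCTCTTCCgccgcagccgc
Eif3f, chr7:108934403-108934432, plus strand: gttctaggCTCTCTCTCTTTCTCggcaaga
Eif3m, chr2:105017028-105017057, minus strand: tacggcaccgCTCTCTTTTCCggtcggcgt
Eif2s3x, chrX:94212632-94212661, minus strand: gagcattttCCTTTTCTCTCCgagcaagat
Eif2s3y, chrY:1010587-1010616, plus strand: ccacagccaCTTCCTTCTTTCgtgagcaag
Eif3a, chr19:60790684-60790713, minus strand: acatccggggctcgggcggcggcgctgccg
Eif5b, chr1:37997990-37998019, plus strand: gagggggcgcctgggttcccacctggccgg
Eif4g1, chr16:20672707-20672736, plus strand: cccggcgccagcgcagctccgccctctgcg
The run was searched on the gene's strand only, from 20 bases before to 30 bases after each annotated start. A marked run therefore need not lie at the cap. That of Eif3m began 20 bases before the annotated start, and that of Eef2 began 15 bases after it. It was found at any annotated start in 18 of the 48 members with an entry, or 37.5%, against 26.81% of the 8030 listed genes with an entry. Eef2k, Eif2ak4, Eif4e and Eif4enif1 each also have an annotated start without a run. By single windows, which is another unit, the share was 22.18% of all 32851.

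Listed reads ranged from 1034754 to 3829356 per library. Mfn2 itself was at 20.25, 55.78, 30.46 and 38.01 CPM (reads scaled to a common library total) in WT-labelled replicates 1 to 4 and at 129.61, 35.36, 56.98, 65.59 and 46.04 CPM in KO-labelled replicates 1 to 5. It was not lower in the KO-labelled libraries, so the groups are called by their labels throughout, in every direction given below. The part of Mfn2 that was deleted is not given in the sources used here, and reads outside it check nothing. The mitochondrial ribosomal RNAs mt-Rnr1 and mt-Rnr2 took 13.9% to 64.8% of the WT-labelled and 12.8% to 25.2% of the KO-labelled libraries. All 10 endothelial markers were listed, with a summed level of 691 to 2434 CPM (WT-labelled) and 2165 to 4837 CPM (KO-labelled). Their median deposited log2 difference was 1.43, beside 1.10 for all genes, and 9 were called higher, where 32.0% of all genes were. The 10 adipocyte markers, none at 0, summed to 3435 to 7290 and 9112 to 21055 CPM. Fabp4, which capillary endothelium of fat also expresses, made up 73.7% to 81.9% and 70.9% to 89.6% of that sum. Without Fabp4 it was 846 to 1632 and 1394 to 2939 CPM, above the endothelial sum in 4 libraries and below it in 5. The 10 adipocyte markers had a median deposited log2 difference of 0.85, beside 1.10 for all genes. Of them 3 were called higher, where 32.0% of all genes were. Adipoq and Plin1 went the other way, at −0.29 and −0.20, and were not called. Skeletal muscle markers, 10 of 12 listed, summed to 57.6 to 150 and 341 to 7519 CPM, with KO-labelled replicate 5 highest and Myh7, Actn3 and Tnni2 each at 0 in at least 1 WT-labelled library. The median deposited log2 difference of these 10 was 3.14, and 9 were called higher, beside 1.10 and 32.0% for all genes. Smooth muscle and pericyte markers, 4 of 7 listed, summed to 80.8 to 208 and 244 to 407 CPM, with a median difference of 0.96 and 2 called higher. Fibroblast markers, 5 of 7 listed, summed to 2669 to 8836 and 1627 to 12676 CPM. That was above the endothelial sum in all 4 WT-labelled libraries and in KO-labelled replicates 1, 2 and 5, and below it in KO-labelled replicates 3 and 4. Macrophage markers, 8 of 8, summed to 215 to 937 and 475 to 1148 CPM. The fibroblast and macrophage lists had median differences of 0.47 and 0.64, with 0 called higher in each. The part of these RNAs in the results below was not tested. In such bulk samples, fewer cells of a type and less RNA per cell cannot be told apart.

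On the log2(CPM + 1) scale the mean of each of the 60 genes was higher in the KO-labelled libraries, as for 94.6% of all genes, although the mean CPM of Eif3a and Eif5b was slightly lower there. By limma on that scale, with Benjamini-Hochberg adjusted p under 0.05 over all 11802 genes, 29 of the 60 were called higher, where 32.0% of all genes were, and 0 were called lower, where 0.203% were. Their median log2 fold change was 1.14, beside 1.10 for all genes. The median gene of a library was itself higher by 0.98 on this log2 scale in the KO-labelled group. Relative values, from the same test after subtracting each library's median log2 value, therefore describe how a factor stood among the other genes of its library. On that scale the 60 genes had a median log2 difference of 0.17, beside 0.12 for all genes, and 42 of them lay above 0, as did 57.9% of all genes. By limma 0 were called in either direction, where 0.0339% of all genes were called higher and 0.0763% lower. At an unadjusted p under 0.05 there were 2 higher, Eif4g2 and Eif3d (5.99% of all genes), and 2 lower, Eif3a and Eif5b (5.69% of all genes). With edgeR after TMM scaling 0 of the 60 were called in either direction, where 0.00847% of all genes were called higher and 0.0339% lower. Of the 33 members to which DESeq2 gave an adjusted p, 2 were called lower, Eif3a and Eif5b, where 3.09% of 4009 genes were, and 0 were called higher, where 0.773% were.

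**Figure D1:**
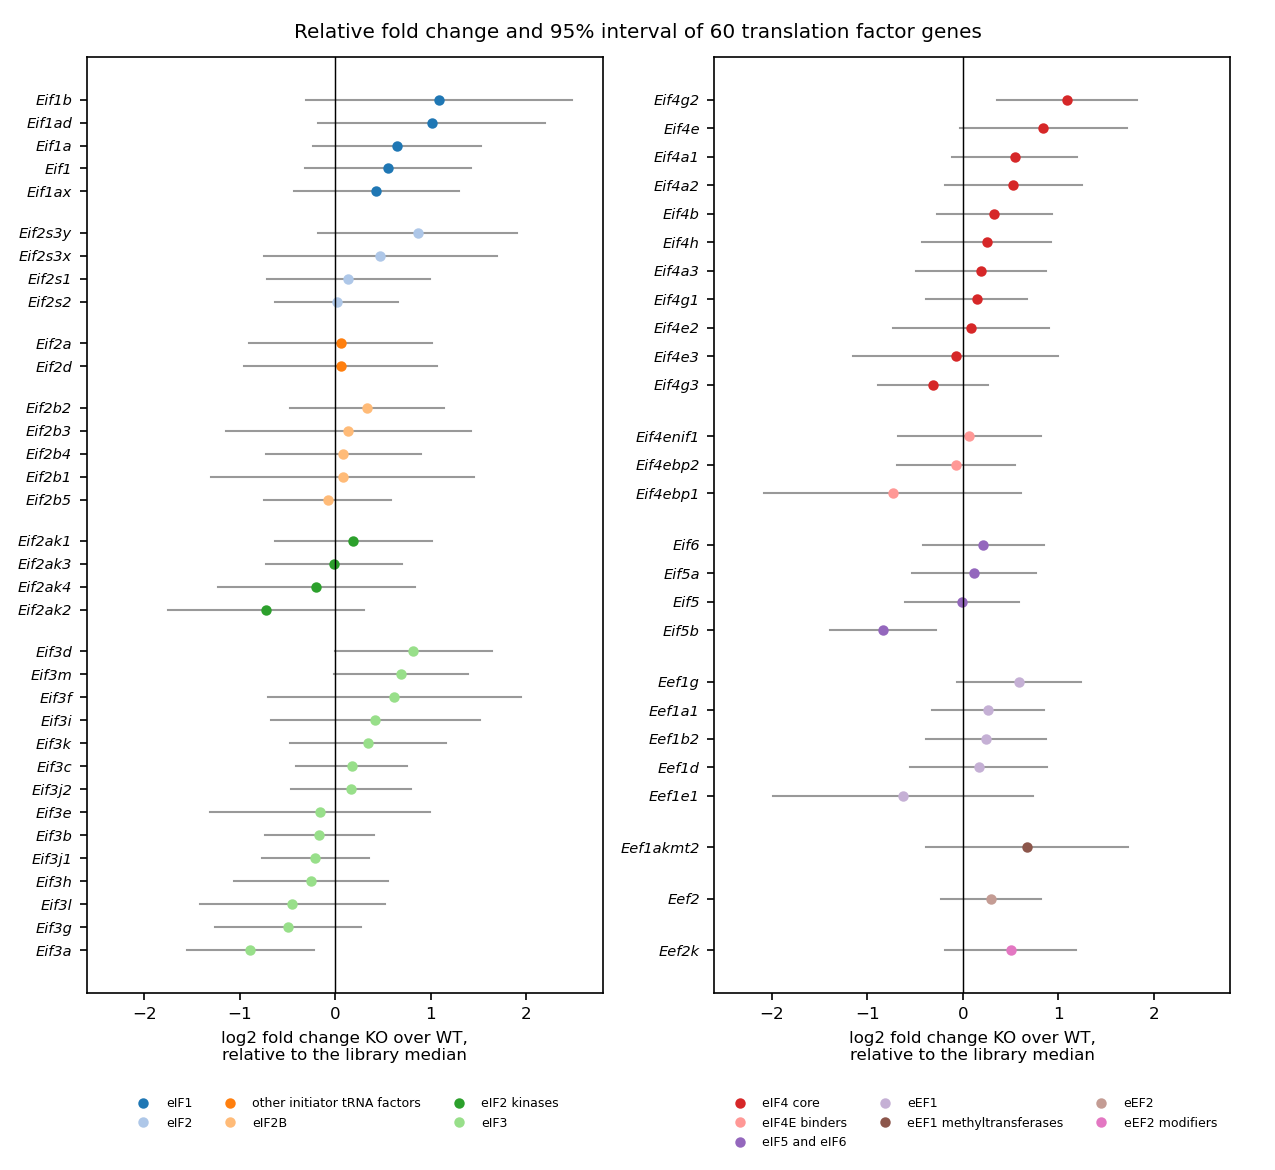
Log2 fold change of each of the 60 genes, KO-labelled over WT-labelled libraries, relative to the library median (points) with its 95% interval from limma (lines), grouped and coloured by complex. Most intervals cover 0, and those of Eif4g2 (1.09), Eif3d (0.82), Eif3a (−0.89) and Eif5b (−0.83) do not.

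Eif1, the scanning factor that guards start codon choice, and its relatives were the group, among those of 3 or more genes, with the largest share of calls. All 5 members, Eif1, its paralog Eif1b, the eIF1A genes Eif1a and Eif1ax, and the related Eif1ad, were called higher in deposited CPM. Of all genes 32.0% were called higher, which stands beside this count and those of the complexes below. The median relative log2 difference of the 5 members was 0.65, and their values ran from 0.43 (Eif1ax) to 1.09 (Eif1b), with 0 called on that scale. Eif1 stood at 13.5, 29.67, 26.79 and 20.91 CPM in WT-labelled replicates 1 to 4 and at 29.14, 30.58, 100.62, 81.41 and 154.59 CPM in KO-labelled replicates 1 to 5. The groups overlapped in KO-labelled replicate 1, and replicates 3 to 5 were the high ones. Its deposited log2 fold change was 1.53 ± 0.476 (SE), adjusted p = 0.0189. Eif1b was much scarcer, at 2.7, 3.56, 0 and 2.85 CPM (WT-labelled) and 2.73, 13.86, 14.07, 7.03 and 34.21 CPM (KO-labelled), so a handful of reads carried it in the WT-labelled group.

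The eIF1A genes had similar levels. Eif1a was measured at 10.8, 20.57, 11.03 and 8.55 CPM (WT-labelled) and 21.86, 30.1, 54.1, 36.9 and 70.48 CPM (KO-labelled). Eif1ax, the X-linked copy, was measured at 12.15, 7.12, 16.28 and 12.35 CPM against 18.52, 26.76, 32.46, 38.07 and 56.07 CPM. Neither gene's groups overlapped, and in both genes KO-labelled replicate 5 was highest. Of all genes, 18.7% had every KO-labelled library above every WT-labelled one in CPM, which stands beside each such gene below. The log2 ratio of Eif1a to Eif1ax differed by 0.22 between groups (exact two-sided permutation test, p = 0.651, adjusted p = 0.835 over the 8 paralog pairs tested). Eif1 shares at least 95% identity with 11 listed pseudogenes or other genes, so its reads could have been split among them. Eif1ad, at 0.95 to 7.88 CPM (WT-labelled) and 9.56 to 24.59 CPM (KO-labelled), overlaps Banf1 on the opposite strand. Banf1 was at 5.4 to 47.51 and 32.78 to 108.93 CPM. Without a stated strand setting, reads of their shared stretch cannot be told apart, which bears on the call of Eif1ad.

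eIF2 consists of an alpha subunit, which is the phosphorylated one (Eif2s1), a beta subunit (Eif2s2) and a gamma subunit that binds GTP and the initiator tRNA, encoded on the X and on the Y (Eif2s3x and Eif2s3y). The gamma genes were called higher in deposited CPM, and Eif2s1 and Eif2s2 were not, with adjusted p of 0.0716 and 0.0538 by limma. Eif2s1 was at 12.15, 10.29, 14.71 and 9.5 CPM (WT-labelled) and 27.02, 18.16, 26.69, 21.67 and 41.93 CPM (KO-labelled). Eif2s2, the most abundant of the 4 genes per kb of exon, was at 41.85, 45.1, 43.07 and 49.42 CPM against 85.6, 97.47, 56.62, 103.08 and 121.15 CPM. It shares 99.496% identity over 992 bases with the listed pseudogene Gm9892, which was at 27.45 to 57.97 and 67.8 to 90.54 CPM. Part of these reads could therefore belong to either. Neither alpha nor beta overlapped between groups in CPM, yet their relative log2 differences were 0.14 and 0.02.

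The gamma pair shows how uneven single libraries were. Eif2s3x was at 9, 8.7, 30.46 and 3.8 CPM (WT-labelled) and 12.14, 12.9, 56.98, 35.73 and 61.22 CPM (KO-labelled). Eif2s3y was at 7.2, 11.47, 1.58 and 12.35 CPM against 41.28, 35.36, 17.67, 21.67 and 23.66 CPM. In WT-labelled replicate 3 the X copy was high and the Y copy was low, and among KO-labelled libraries replicates 1 and 2 had more of the Y copy and replicates 3 to 5 more of the X copy. The log2 ratio of the X to the Y copy differed by −0.51 between groups (exact two-sided permutation test, p = 0.730, adjusted p = 0.835) and ranged from −1.70 to 4.27 within the WT-labelled group. Eif2s3x is 100% identical over 1350 bases to the listed pseudogene Gm2223, at 0.79 to 6.3 and 4.25 to 16.46 CPM, so its level is uncertain. The gamma genes carry the pyrimidine runs printed above. Eif2a and Eif2d, factors that can deliver initiator tRNA without eIF2, were each at a relative log2 difference of 0.06 and were not called.

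eIF2B is a complex of 5 different subunits, of which Eif2b5 encodes the catalytic epsilon subunit. Eif2b2 alone was called higher in deposited CPM, and the relative log2 median of the 5 was 0.08, which was −0.01 with TMM scaling. Eif2b5, the most abundant per kb, was at 28.8, 78.33, 30.99 and 107.38 CPM (WT-labelled) and 79.83, 62.12, 119.38, 157.54 and 100.32 CPM (KO-labelled). The groups overlapped, and its relative difference of −0.08 ± 0.319 (SE) was the lowest of the complex. Eif2b2, the beta subunit gene, was highest of the complex on that scale at 0.33, with 11.25, 20.97, 6.3 and 38.96 CPM against 39.16, 28.19, 33.18, 49.2 and 59.93 CPM.

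The 4 eIF2 kinases, which sense haem (Eif2ak1), double-stranded RNA (Eif2ak2, PKR), unfolded protein in the endoplasmic reticulum (Eif2ak3, PERK) and uncharged tRNA (Eif2ak4, GCN2), gave 0 calls in deposited CPM. At an unadjusted relative p under 0.05 the count was also 0. Eif2ak3, the most abundant per kb, was at 15.3, 25.32, 13.13 and 43.71 CPM (WT-labelled) and 28.23, 41.57, 55.18, 40.41 and 58.9 CPM (KO-labelled), and its relative log2 difference was −0.01 ± 0.341 (SE). Eif2ak2 was lowest on the relative scale at −0.72 ± 0.493, from 13.05, 5.14, 17.33 and 26.61 CPM against 14.87, 5.73, 17.31, 17.57 and 40.9 CPM. Its groups overlapped almost fully. Eif2ak1 was highest at 0.19, with 7.65, 7.12, 7.35 and 16.15 CPM against 21.25, 13.86, 23.44, 22.84 and 28.81 CPM. Eif2ak4 was at 5.4, 10.68, 11.03 and 33.26 CPM and at 68.91, 22.94, 14.79, 13.47 and 14.92 CPM, so 1 library of each group stood above the others.

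eIF3 is the largest initiation factor and scaffolds the small subunit during scanning. Its subunits are thought to work in equal numbers, but their RNA levels here were far from equal. Per kb of exon, Eif3a (246 CPM per kb, mean of 9 libraries), Eif3b (119) and Eif3c (92.8) were 3 of the 5 most abundant of the 60 genes. These encode the large core subunits, and the other 2 were Eef1a1 (163) and Eef2 (101 CPM per kb). The other 11 eIF3 genes ran from 1.87 (Eif3e) to 25.7 CPM per kb (Eif3j2). In each of the 9 libraries the lowest of Eif3a, Eif3b and Eif3c was above the highest of the other 11, by 2.12 to 5.76 times. How far the exons used for length, or the mapping, set these gaps was not tested.

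**Figure D2:**
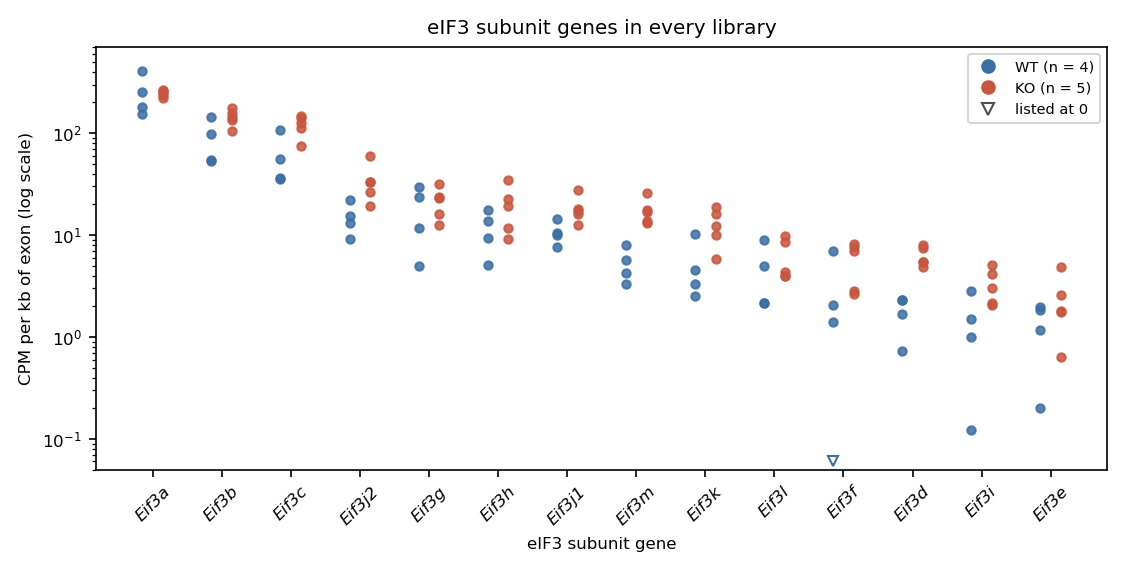
CPM per kb of exon (log axis) for the 14 eIF3 genes, with 1 point per library for 4 WT-labelled and 5 KO-labelled libraries, and an open triangle where a gene is listed at 0. Eif3a, Eif3b and Eif3c stand above the other 11 genes in both groups, and Eif3a alone of these 3 has its WT-labelled points spread around its KO-labelled points.

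Eif3a, whose protein is the largest eIF3 subunit, had the highest CPM of the 60 genes in every library and nearly the same mean CPM in both groups. Per kb of exon it was also first except in KO-labelled replicates 3, 4 and 5, where Eef1a1 was at 279, 283 and 277 CPM per kb and Eif3a at 246, 219 and 236. Its CPM was 1331.56, 2191.33, 1566.28 and 3552.19 in WT-labelled replicates 1 to 4, and 2279.34, 2317.4, 2145.19, 1910.42 and 2056.24 in KO-labelled replicates 1 to 5. The means were 2160 ± 996 (SD, n = 4) and 2142 ± 166 (SD, n = 5) CPM, and the groups overlapped. In deposited CPM the difference was 0.09 ± 0.469 on the log2 scale (SE; limma adjusted p = 0.874). Relative to the library median, Eif3a lay 7.51, 7.60, 7.23 and 7.69 log2 units above it in the WT-labelled libraries and 6.74, 7.03, 6.58, 6.40 and 6.37 above it in the KO-labelled ones. On that scale every KO-labelled library was below every WT-labelled library, as for 1.74% of all genes. The relative log2 difference was −0.89 (95% interval −1.55 to −0.22, limma adjusted p = 0.286), so it did not pass the adjusted threshold. DESeq2 on the recovered reads gave an adjusted p of 0.00477. Among protein-coding genes ranked by CPM, Eif3a was in places 6 to 12 in the WT-labelled and 13 to 26 in the KO-labelled libraries. Ranked by CPM per kb it was in places 33 to 43 and 41 to 105, which overlap.

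The other large core subunits had higher means in the KO-labelled group. Eif3b was at 182.25, 329.55, 179.63 and 485.6 CPM (WT-labelled) and 348.17, 447.71, 596.89, 526.51 and 483.32 CPM (KO-labelled), with a deposited log2 fold change of 0.81 (limma adjusted p = 0.0998). Eif3c was at 127.35, 195.83, 125.01 and 374.41 CPM against 264.69, 394.2, 495.18, 511.87 and 444.22 CPM, with 1.15 (limma adjusted p = 0.0309). Within a library the ratio of Eif3a to Eif3b was 6.65 to 8.72 in the WT-labelled and 3.59 to 6.55 in the KO-labelled libraries. The ratio of Eif3a to Eif3c was 9.49 to 12.5 and 3.73 to 8.61. Neither ratio overlapped between groups, and neither depends on how the libraries are scaled. These ratios, and Eif3b and Eif3c as genes to show, were chosen after the values were seen, so they are given with no test.

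**Figure D3:**
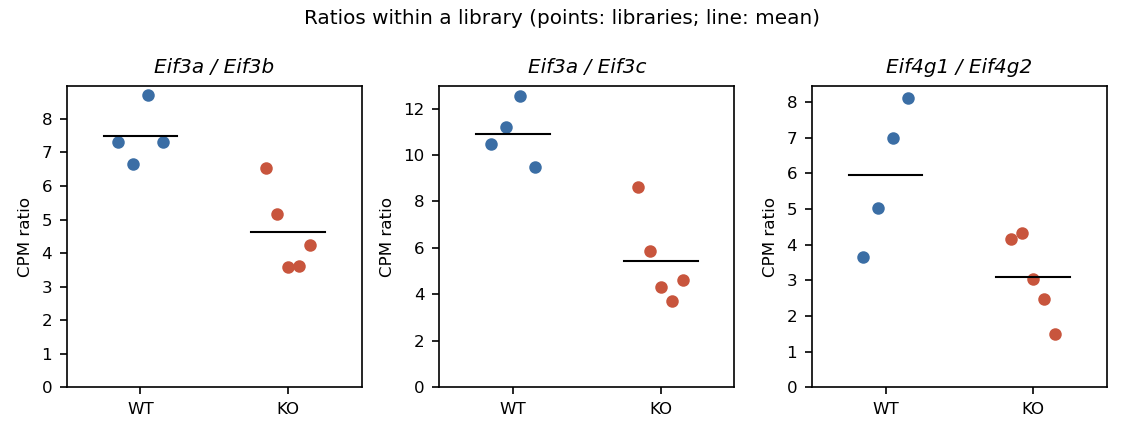
Ratio of the CPM of a pair of genes within each library (points), with the group mean (line), for Eif3a over Eif3b, Eif3a over Eif3c and Eif4g1 over Eif4g2. The first 2 ratios do not overlap between the WT-labelled (n = 4) and KO-labelled (n = 5) libraries, and that of Eif4g1 over Eif4g2 does.

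Of the 14 eIF3 genes, 5 were called higher in deposited CPM: Eif3c, Eif3d, Eif3j2, Eif3k and Eif3m. The complex's relative median was 0.01 (−0.06 with TMM scaling), with 7 genes above 0 and 7 below. Eif3d, a cap-binding subunit, stood highest at 0.82 ± 0.393 (SE; limma adjusted p = 0.426). It was at 3.6, 8.31, 11.56 and 11.4 CPM (WT-labelled) and 36.73, 27.24, 24.16, 39.82 and 26.75 CPM (KO-labelled), with no overlap. Eif3m, named after its values were seen, was the only member whose relative values were higher in every KO-labelled than in every WT-labelled library, as for 2.07% of all genes. Its CPM was 8.55, 11.08, 14.71 and 20.91 against 34, 35.36, 43.64, 45.68 and 66.88, a mean of 13.8 ± 5.36 (SD, n = 4) against 45.1 ± 13.2 (SD, n = 5). The relative log2 difference of Eif3m was 0.69 (limma adjusted p = 0.435). Eif3j1 and Eif3j2 are 99.412% identical over 2379 bases, so their counts are uncertain one against the other.

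The eIF4 group had 8 of 11 genes called higher in deposited CPM, where 32.0% of all genes were, with Eif4e2, Eif4e3 and Eif4g3 not called. Its relative log2 median was 0.25. Eif4g2 (DAP5), an eIF4G relative that lacks the site for the cap-binding protein eIF4E, had the largest difference in the group. It was at 38.7, 47.87, 26.26 and 32.31 CPM in WT-labelled replicates 1 to 4 and at 127.79, 79.79, 152.92, 154.03 and 329.76 CPM in KO-labelled replicates 1 to 5. The means were 36.3 ± 9.24 (SD, n = 4) and 169 ± 94.8 (SD, n = 5) CPM, and even the lowest KO-labelled library was above all WT-labelled ones. In deposited CPM it was called higher at 2.06 ± 0.420 (SE, log2; limma adjusted p = 0.00312). The relative difference was 1.09 (95% interval 0.35 to 1.82, limma adjusted p = 0.234), and relative values overlapped.

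Eif4g1, the main scaffold that joins cap, helicase and eIF3, was at 141.3, 240.93, 183.31 and 262.28 CPM (WT-labelled) and 532.42, 346.41, 463.44, 381.85 and 497.73 CPM (KO-labelled). Its deposited log2 fold change was 1.12 (limma adjusted p = 0.0289) and its relative difference 0.14. Eif4g3, another eIF4G gene, was lowest of the group at a relative difference of −0.31, from 49.95, 83.08, 78.79 and 142.54 CPM against 186.99, 135.22, 111.08, 117.72 and 118.58 CPM. The mean log2 ratio of Eif4g1 to Eif4g2 was 2.51 in the WT-labelled and 1.54 in the KO-labelled libraries. That difference of −0.97 had p = 0.0476 in the exact two-sided permutation test and an adjusted p of 0.349 over the 8 pairs, so it did not pass. The log2 ratio of Eif4g1 to Eif4g3 differed by 0.46 (exact permutation p = 0.0873, adjusted p = 0.349). As CPM ratios, Eif4g1 over Eif4g2 was 3.65 to 8.12 and 1.51 to 4.34, which overlap.

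The helicase genes Eif4a1 and Eif4a2 stood in nearly the same mean proportion in both groups. Eif4a1 was at 11.7, 39.96, 43.6 and 74.12 CPM (WT-labelled) and 102.6, 89.83, 84.39, 118.89 and 125.78 CPM (KO-labelled), called higher at 1.52 (limma adjusted p = 0.0140). Eif4a2 was at 10.35, 41.54, 17.33 and 44.66 CPM against 68.6, 34.88, 101.34, 81.41 and 88.74 CPM, called higher at 1.51 (limma adjusted p = 0.0178). Their log2 ratio averaged 0.55 in both groups (exact permutation p = 0.992), although single libraries ran from −0.26 to 1.36. Eif4a1 shares 99.918% identity over 1218 bases with the listed pseudogene Eif4a-ps4, which was at 6.3 to 39.91 and 44.44 to 85.14 CPM, so part of these reads could belong to either.

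Eif4e, which binds the cap, was at 4.05, 5.93, 5.25 and 17.11 CPM (WT-labelled) and 15.78, 20.55, 34.98, 25.77 and 48.62 CPM (KO-labelled). It was called higher (1.82 on the log2 scale, limma adjusted p = 0.0151), with overlap between WT-labelled replicate 4 and KO-labelled replicate 1. The related Eif4e2, which represses translation, was at 8.1, 7.91, 17.86 and 33.26 CPM against 37.94, 26.76, 22, 43.92 and 27.01 CPM. Eif4e3 was at 9.9, 7.91, 9.98 and 4.75 CPM against 6.37, 12.9, 18.03, 22.84 and 25.72 CPM. The log2 ratios of Eif4e to Eif4e2 and to Eif4e3 differed by 0.86 and 1.00 between groups, with exact permutation p of 0.175 and 0.159 and an adjusted p of 0.349 for each. The cap-side helpers Eif4b and Eif4h, which stimulate the helicase, and Eif4a3, a helicase of the exon junction complex, were also called higher, at 1.31, 1.23 and 1.17.

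The 3 genes whose proteins hold eIF4E away from eIF4G or move it to the nucleus were not called. Eif4ebp1, a target of mTORC1, was at 3.6, 6.73, 3.68 and 10.45 CPM (WT-labelled) and 15.18, 8.12, 5.77, 0.59 and 17.49 CPM (KO-labelled), where 0.59 CPM is a single read. In deposited CPM the log2 difference was 0.24 ± 0.665 (SE; limma adjusted p = 0.757). Eif4ebp2, the more abundant repressor, was at 20.25, 39.56, 25.21 and 49.42 CPM against 46.44, 53.52, 53.38, 70.28 and 84.88 CPM, with a relative difference of −0.07. Only KO-labelled replicate 1 lay inside the WT-labelled range. The log2 ratio of Eif4ebp1 to Eif4ebp2 differed by −0.83 (exact permutation p = 0.675, adjusted p = 0.835). Eif4enif1, the eIF4E transporter, was at 39.6, 30.46, 13.13 and 46.56 CPM against 60.1, 41.57, 59.15, 72.62 and 83.6 CPM, with a relative difference of 0.07.

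**Figure D4:**
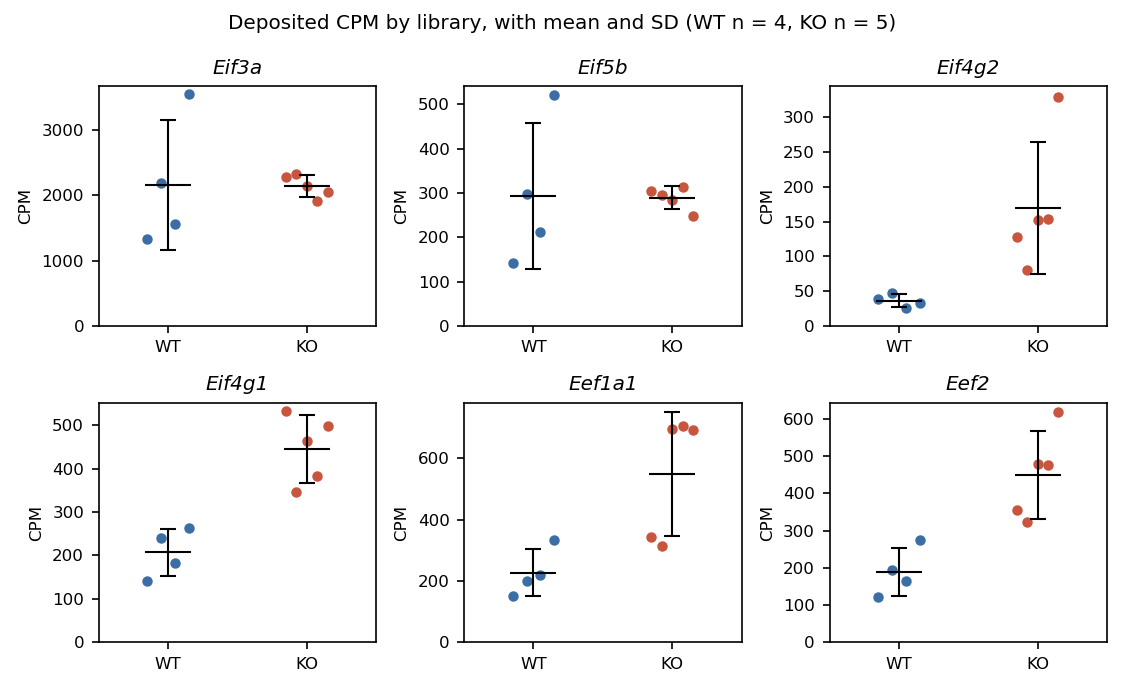
Deposited CPM of Eif3a, Eif5b, Eif4g2, Eif4g1, Eef1a1 and Eef2 in each library (points), with the group mean and SD (4 WT-labelled and 5 KO-labelled libraries). For Eif3a and Eif5b the 2 group means are nearly the same, while the other 4 are higher in the KO-labelled libraries in CPM.

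Eif5b, the GTPase that joins the large subunit, also had nearly the same mean CPM in both groups. It was at 141.3, 297.51, 211.15 and 521.71 CPM in WT-labelled replicates 1 to 4 and at 305.37, 296.24, 283.48, 312.74 and 247.19 CPM in KO-labelled replicates 1 to 5. The means were 293 ± 165 (SD, n = 4) and 289 ± 25.8 (SD, n = 5) CPM. The relative difference was −0.83 (95% interval −1.39 to −0.28, limma adjusted p = 0.229), and every KO-labelled relative value was below every WT-labelled one. DESeq2 gave an adjusted p of 0.0164. The CPM ratio of Eif3a to Eif5b was 6.81 to 9.42 in the WT-labelled and 6.11 to 8.32 in the KO-labelled libraries. Eif5b overlaps Rev1 on the opposite strand, and Rev1 was at 21.01 to 145.39 and 68.94 to 168.08 CPM, so without a stated strand setting reads of the shared stretch cannot be told apart.

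Eif5, which triggers GTP hydrolysis by eIF2, did not overlap between groups in CPM, at 49.95 to 85.53 CPM (WT-labelled) and 93.71 to 191.24 CPM (KO-labelled) and a relative difference of −0.01. Eif5a, the hypusine-bearing factor that helps the ribosome through difficult peptide bonds, was at 43.65, 54.99, 56.2 and 182.46 CPM against 90.76, 106.55, 196.56, 175.11 and 239.22 CPM. It was called higher at 1.09 (limma adjusted p = 0.0466), with WT-labelled replicate 4 inside the KO-labelled range. Eif6, which keeps the ribosomal subunits apart, was called higher at 1.19 (limma adjusted p = 0.0361). It was at 19.35, 48.66, 26.79 and 79.82 CPM against 62.23, 64.5, 94.49, 108.35 and 125.01 CPM, and its relative difference of 0.21 was the highest of these 4 genes.

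Among the elongation factors, Eef1a1, the carrier of charged tRNA, was at 152.55, 200.58, 219.03 and 333.55 CPM (WT-labelled) and 342.71, 312.97, 694.99, 704.55 and 690.39 CPM (KO-labelled). KO-labelled replicates 1 and 2 were close to WT-labelled replicate 4, and replicates 3 to 5 were about the same as each other. Eef1a1 was called higher in deposited CPM at 1.24 ± 0.406 (SE, log2; limma adjusted p = 0.0230), and its relative difference was 0.26. Eef1a1 has 9 listed pseudogenes of at least 95% identity, so its level is uncertain. Eef1g, a structural subunit of the exchange complex that recharges eEF1A, was highest of the group at a relative difference of 0.59. It was at 43.2, 64.49, 29.94 and 78.87 CPM against 97.44, 102.73, 183.57, 169.26 and 264.17 CPM, with 1.57 in deposited CPM (limma adjusted p = 0.00987). The exchange subunit gene Eef1b2 was called at 1.22, and Eef1d, with 1.14, missed the threshold (limma adjusted p = 0.0529). Eef1e1, a scaffold of the tRNA synthetase complex, was lowest at −0.63, with 2.7, 1.19, 12.08 and 5.7 CPM against 1.21, 5.73, 8.66, 13.47 and 4.89 CPM. Eef1akmt2, a lysine methyltransferase of eEF1A, was called higher at 1.65 (limma adjusted p = 0.0316). Eef1a2, the eEF1A gene of muscle and neurons, was not among the listed genes.

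Eef2, the translocase, was at 121.05, 195.04, 164.93 and 275.58 CPM (WT-labelled) and 355.45, 322.05, 478.95, 474.97 and 619.13 CPM (KO-labelled), with no overlap. Eef2 was called higher at 1.27 ± 0.394 (SE, log2; limma adjusted p = 0.0187), and its relative difference was 0.29. Eef2k, the kinase that inhibits eEF2, was at 15.75, 24.13, 17.33 and 29.46 CPM against 53.42, 80.75, 56.98, 41.58 and 77.68 CPM, also without overlap. Eef2k was called at 1.48 (limma adjusted p = 0.0152), with a relative difference of 0.50. The ratio of Eef1a1 to Eef2 averaged 1.21 in the WT-labelled and 1.20 in the KO-labelled libraries, with ranges of 1.03 to 1.33 and 0.964 to 1.48.

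Taking the 60 genes as a pool, Eif3a alone made up 43.6% ± 1.46 (SD, n = 4) of their summed CPM in the WT-labelled libraries and 28.1% ± 5.42 (SD, n = 5) in the KO-labelled ones. The shares ran from 41.8% to 45.3% and from 22.1% to 35.0% and did not overlap. This was a description and not a test. In WT-labelled replicates 1 to 4 the Eif3a share was 43.9%, 43.4%, 41.8% and 45.3%. Their mitochondrial rRNA share was 64.8%, 47.5%, 48.3% and 13.9%, and its part in the Eif3a share was not tested. The eIF4 core genes made up 10.9% to 13.7% of the pool in the WT-labelled and 15.2% to 20.7% in the KO-labelled libraries. Eef2 held 3.52% to 4.40% and 4.86% to 6.65%, with no overlap, and the eEF1 genes 6.23% to 8.25% and 7.78% to 12.9%. Because these are shares of the same pool, a smaller Eif3a share leaves a larger remainder for the other 59 genes. The shares above, and any lack of overlap in them, are given only for a pool that includes Eif3a. The part of that remainder in the higher eIF4 core, Eef2 and eEF1 shares was not tested. The summed CPM of the other 59 genes was 1705 to 4288 and 4309 to 7254, with the lowest KO-labelled library just above the highest WT-labelled one.

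**Figure D5:**
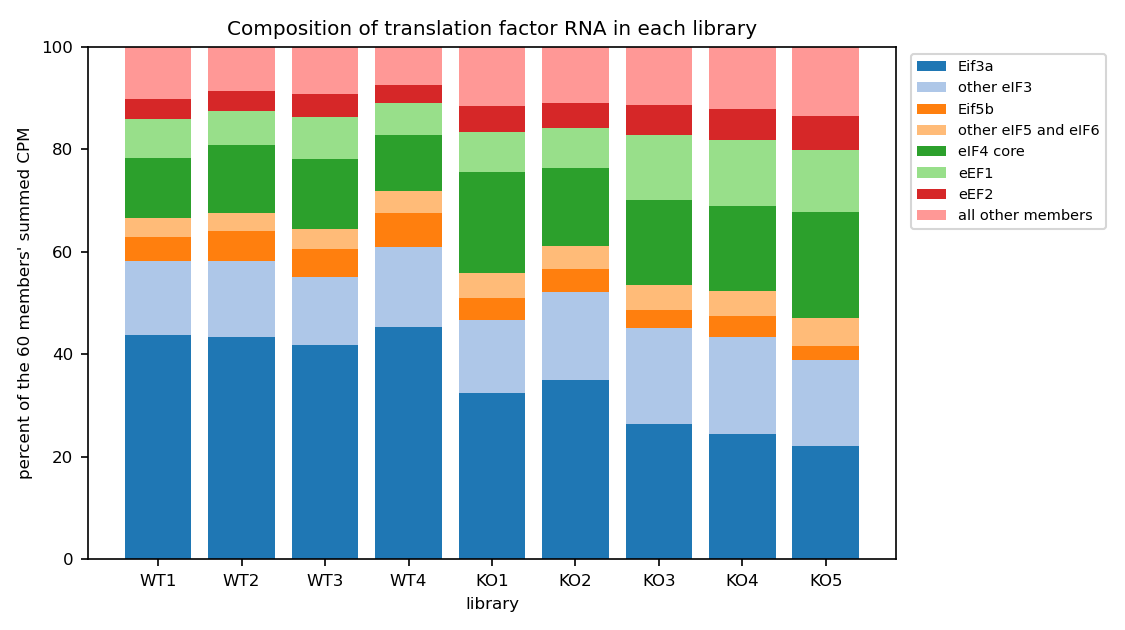
Share of the summed CPM of the 60 genes (percent, stacked bars from 0) taken by Eif3a, the other eIF3 genes, Eif5b, the other eIF5 and eIF6 genes, the eIF4 core, eEF1, eEF2 and all other members in each of the 9 libraries. The Eif3a share is 41.8% to 45.3% in the 4 WT-labelled bars and 22.1% to 35.0% in the 5 KO-labelled bars.

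The 18 members with a pyrimidine run near the start had a median relative log2 difference of 0.34, and 12 of them were called higher in deposited CPM. The 30 members with an entry but no run had a median of 0.08, and 12 were called higher. Over all genes the median was 0.12, and 32.0% were called higher. Both sets spread widely, with lowest values of −0.63 and −0.89, and no test was made. Eif3a, Eif5b and Eif4g1 are among the genes without a run in the searched window, and Eef1a1, Eef2 and Eif3m among those with one.

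Genes that act on these factors were counted from lists, and each list's count of calls in deposited CPM stands beside the 32.0% of all genes called higher. Of 15 mTORC1 and cap signalling genes, 4 were called higher in deposited CPM and 1, Ddit4, was also called relative to the library median. Ddit4 encodes REDD1, an inhibitor of mTORC1 induced by stress and glucocorticoids. It was at 36, 48.27, 13.13 and 32.31 CPM (WT-labelled) and 169.68, 189.69, 330, 236.61 and 300.18 CPM (KO-labelled), with a relative difference of 1.99 (limma adjusted p = 0.0403). Its CPM did not overlap between groups. The alternatives were 20 in number, and that with no filter on low CPM repeats the main fit, since the filter removed 0 genes. Over these 20 the difference was 1.65 to 2.54, the adjusted p 0.000864 to 0.308, and the call was lost in 10 of them. Among these were leaving out WT-labelled replicate 1, 3 or 4, or KO-labelled replicate 2, 3 or 4. Of 8 listed genes of the integrated stress response, the programme that follows eIF2 phosphorylation, 3 were called higher in deposited CPM and 0 on the relative scale. Ppp1r15b, which recruits the phosphatase of eIF2, had the highest mean CPM over the 9 libraries, though not in the WT-labelled group alone, and a relative difference of 0.81 (limma adjusted p = 0.337). Trib3, a pseudokinase induced by that programme, was at 0.94 and Ddit3 (CHOP), its transcription factor, at −1.29 (limma adjusted p = 0.284).

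Of 9 listed poly(A) binding and scanning helpers, 5 were called higher in deposited CPM. The helicase gene Ddx3x had the highest mean CPM over the 9 libraries, though Pabpc1 was above it in 5 of them, with a relative difference of 0.46, while Paip2b stood highest at 1.38 and the poly(A) binding gene Pabpc4 lowest at −0.18. In the termination and recycling list 2 of 5 were called higher, with Hbs1l, a ribosome rescue factor, at 0.50 and Nemf, of ribosome quality control, at −0.86. For diphthamide, the modified histidine of eEF2, 1 of 4 listed genes was called higher, Dph5, at a relative difference of 1.36, and Dnajc24 was lowest at −0.90. Dhps, which makes hypusine on eIF5A, was not called (limma adjusted p = 0.0678). Of 9 mitochondrial translation factors, 2 were called higher. Mtif2, the mitochondrial counterpart of eIF5B, was at 32.4, 39.17, 28.36 and 103.58 CPM against 45.53, 46.35, 12.26, 27.53 and 26.49 CPM. Its relative difference of −1.58 did not pass (limma adjusted p = 0.143), and Mrrf, the ribosome recycling factor, was highest of that list at 0.92.

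Across the 60 genes, 16 had a listed copy of at least 95% identity over 200 bases or more, which bears on their levels because the read counter is not given in the sources used here. Every KO-labelled library was above every WT-labelled one in CPM for 22 of the 60, where 18.7% of all genes showed this, and below for 0, where 0.0254% did. The 29 deposited calls changed with the settings. After the mitochondrial rRNAs were left out of the library totals 0 remained (21 of all genes). The members' median log2 difference was then 0.59, beside 0.59 for all genes. That of Eif4g2 was 1.48 (limma adjusted p = 0.0651). Without WT-labelled replicate 1, which had the largest mitochondrial rRNA share, 6 members were called higher (1094 of all genes), and without WT-labelled replicate 3 there were 13 (1799). Leaving out KO-labelled replicate 3, 4 or 5 gave 10 (1689), 16 (2091) and 11 (1831). Without WT-labelled replicate 4 the count was 43 (5916 of all genes), and without WT-labelled replicate 2 it was 21 (2869). Without KO-labelled replicate 1 or 2 it was 29 each time (3510 and 3826).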

How the data were processed

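The authors deposited 1 table of CPM (reads of a gene as a share of the library's) covering 11802 genes in 9 libraries, per the labels. Values were whole multiples of 1 read in at least 99.97% of cases within 0.1 read, so reads were recovered for count tests. Tools listed in the submitters' processing notes, without roles, are HISAT2 2.1.0, Trimmomatic 0.39, FastQC 0.11.9, R 4.0.2 and edgeR 3.32.0, with the builds mm10 and GRCm38. For the counter, strand setting and annotation, nothing was given in the sources used here. Symbols, copies and exon lengths came from GENCODE M21 (GRCm38).

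Log2(CPM + 1) values were tested in R 4.3.3 by limma 3.58.1, its trend option on, with Benjamini-Hochberg adjustment over all genes, repeated after subtracting each library's median. Fold changes on this scale understate those of low genes. A minimum mean CPM of 1 removed 0 genes. edgeR 4.0.16, DESeq2 1.42.0 and other settings were alternatives. Paralog ratios used exact two-sided permutation over 126 splits, with a smallest possible p of 0.00794. Members and lists were chosen with earlier results of these data known. Values per library are given for main factors, paralog pairs and, in each complex, the most abundant, highest and lowest member. Pathway lists are named by their relative call or, with none, by the same rule. Of the 69 annotated genes with such names, 9 were not listed.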

Additional observations from a re-analysis of the deposited data

Results flagged for a closer look

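Of 76 groups of 4 or 5 libraries checked, 4 held 1 library far from the others in CPM, and chance gives about 1 in 20. Eif2ak1 was at 16.15 CPM in WT-labelled replicate 4, where the other 3 were at 7.12 to 7.65. In the same library Eif4e was at 17.11 CPM (others 4.05 to 5.93) and Eif5a at 182.5 CPM (others 43.65 to 56.2). That library had the fewest listed reads, 1034754, and the lowest WT-labelled mitochondrial rRNA share, 13.9%, and the part of either was not tested. Eif2ak4 was at 68.91 CPM in KO-labelled replicate 1, where the other 4 were at 13.47 to 22.94.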

How the results depend on the processing

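Of the 29 members called higher in deposited CPM (3780 of all genes), 0 remained after quantile normalisation (4 of all genes), 0 after leaving the mitochondrial rRNAs out of the totals (21) and 0 with their share as a covariate (16). There were 15 without the limma trend (2901) and 18 with edgeR (2104). Leaving out 1 library gave 6 to 43 (1094 to 5916). The member median in deposited CPM, 1.14, was 0.18 after quantile normalisation, 0.59 without the mitochondrial rRNAs and 0.47 with the covariate. The median of all genes, 1.10, was 0.038, 0.59 and 0.46 in these settings. Relative calls, 0 in limma (13 of all genes), were 2 with DESeq2 (155 of the 4009 genes given an adjusted p). Over 20 alternatives the relative differences were −0.99 to −0.60 for Eif3a (adjusted p 0.00477 to 0.559), −1.06 to −0.62 for Eif5b (0.0164 to 0.50) and 0.83 to 1.59 for Eif4g2 (0.128 to 0.508). The alternative with no filter on low CPM repeats the main fit, since the filter removed 0 genes.

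Replicate numbers did not pair the libraries: same-numbered libraries correlated at 0.029, −0.022, −0.040 and 0.039. With the replicate block, in which KO-labelled replicate 5 has no partner, 10 members were called higher (1932 of all genes). Sex as a covariate was not run, since Y-linked genes had reads in all 9 libraries.

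Of the differences that changed sign only that of Eif5a in deposited CPM had been called, and the cause was not tested. In deposited CPM, quantile normalisation gave Eef1e1 −0.79, Eif2ak2 −0.78, Eif2ak3 −0.0096, Eif2ak4 −0.22, Eif2b5 −0.052, Eif3a −0.61, Eif4e3 −0.16, Eif4ebp1 −0.81, Eif4ebp2 −0.065, Eif4g3 −0.30, Eif5b −0.63, Dnajc24 −0.94, Nemf −0.84 and Pabpc4 −0.22. Leaving out the mitochondrial rRNAs gave Eef1e1 −0.12, Eif2ak2 −0.31, Eif3a −0.51, Eif4ebp1 −0.28, Eif5b −0.45, Dnajc24 −0.46 and Nemf −0.47. Their share as a covariate gave Eef1e1 −0.020, Eif2ak2 −0.59, Eif2ak4 −0.27, Eif2b5 −0.072, Eif3a −0.55, Eif4ebp1 −0.36, Eif5a −0.035, Eif5b −0.69, Dnajc24 −0.91 and Nemf −0.14. edgeR gave Eif3a −0.012, Eif5b −0.017 and Dnajc24 −0.11, and the replicate block Eif2ak2 −0.066 and Eif4ebp1 −0.066.

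On the relative scale, a pseudocount of 0.5 gave Eif2s2 −0.013. A pseudocount of 5 gave Eif2ak3 0.077, Eif2b5 0.077, Eif3b 0.039, Eif4ebp2 0.063 and Dhps −0.13. Quantile normalisation gave Eif3b 0.092, and leaving out the mitochondrial rRNAs Eif2s2 −0.027. edgeR gave Eif2ak4 0.054, Eif2s1 −0.019, Eif2s2 −0.087, Eif4e2 −0.015 and Eif4enif1 −0.18, DESeq2 Eif2s2 −0.084 and Eif4enif1 −0.18, and the replicate block Eif2s2 −0.040. The covariate gave Eif2b2 −0.081, Eif3c −0.0057, Eif4e2 −0.26, Eif4e3 0.88, Eif5a −0.40, Eif6 −0.20 and Pabpc4 0.23.

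Leaving out 1 library spanned 0 in deposited CPM for Eif3a (−0.11 to 0.36), Eif5b (−0.15 to 0.47), Dnajc24 (−0.37 to 0.43), Eef1e1 (−0.064 to 0.80), Eif2ak2 (−0.16 to 0.59), Eif4ebp1 (−0.066 to 0.82) and Nemf (−0.15 to 0.32). On the relative scale it did for Eif2ak3 (−0.22 to 0.13), Eif2ak4 (−0.61 to 0.048), Eif2b2 (−0.041 to 0.54), Eif2b5 (−0.30 to 0.10), Eif2s1 (−0.16 to 0.36), Eif2s2 (−0.15 to 0.19), Eif2s3x (−0.14 to 1.00), Eif4e2 (−0.18 to 0.26), Eif4e3 (−0.49 to 0.23), Eif4ebp2 (−0.15 to 0.023), Eif4enif1 (−0.28 to 0.40) and Eif5a (−0.014 to 0.36). Log2 ratios spanned 0 for Eif4a1 to Eif4a2 (−0.20 to 0.26), Eif4ebp1 to Eif4ebp2 (−1.26 to 0.061) and Eif2s3x to Eif2s3y (−1.28 to 0.70). Members at a few reads per library, such as Eif1b and Eif2b3, are limited by depth.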
